A study of Mus musculus with 12 samples.

Results

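The genes that present antigen on major histocompatibility complex (MHC) class I and class II molecules were read in mouse liver, 9 genes of the 12393 named on the Affymetrix 430A array. Class I was represented by the heavy chain genes H2-K1 and H2-D1, the light chain gene B2m and the peptide loading genes Tap1 and Tapbp (5 genes), and class II by the chain genes H2-Aa, H2-Ab1 and H2-Eb1 and the invariant chain gene Cd74 (4 genes). Every probe set annotated to 1 of these symbols alone was taken, whatever its signal, which gave 28 of the 22626 probe sets other than controls, 21 for class I and 7 for class II. A probe set is a group of short oligonucleotides that report on 1 transcript, and its signal is a relative brightness, so levels were compared between arrays and never between probe sets. Of the 28 probe sets, 23 were bright enough to be tested, 16 for class I and 7 for class II. The 5 others, 3 for Tap1 and 2 for H2-D1, were dim.

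Livers came from mice 10 weeks of age. Mice without Fah cannot finish the breakdown of tyrosine and make toxic products, which the drug NTBC prevents by stopping the pathway upstream. The normal group of the titles held 4 livers of different kinds, normal 1 of a wildtype mouse on water, normal 2 of a wildtype mouse on NTBC, normal 3 of a Fah knockout on NTBC and normal 4 of a mouse without Fah and p21 (the product of Cdkn1a) on NTBC. The single knockout group held 3 Fah knockout livers and the double knockout group 2 livers lacking Fah and p21, all taken 14 days after NTBC was stopped. A second array design, 430 2.0, held 1 liver titled normal 4, of the double knockout on NTBC, and 2 further double knockout livers off NTBC. Because its replicate number matches, that normal liver was treated as the normal 4 mouse of the 430A arrays. The sources used here do not give the mouse strain, which sets the MHC haplotype. The titles call the mice biological replicates, each group is small, and the p-values measure the spread between these samples alone.

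Before the members were read, the labels and the tissue were checked. Both wildtype livers had high Fah signal (6868.1 and 7120.1), both knockout livers kept on NTBC had little (181.9 and 233), and the 5 livers off NTBC had 100.8 to 114.2. For Cdkn1a the 2 probe sets differed. At 1421679_a_at signal was 14.7 to 51.4 in the normal livers, 989.5 to 1861.5 in the single knockout and 9.5 and 8.2 in the livers labelled double knockout off NTBC. At 1424638_at it was 75.2 to 257.7, 2814 to 3935.7 and 1827.6 and 2059.6, so this probe set was high in livers labelled as lacking p21. Where the p21 deletion lies relative to each probe set is not known here, so the label is borne out by 1 of these 2 probe sets. Summed signal of 8 hepatocyte genes (albumin and transthyretin genes among them) was 107417 to 113077 in the normal group. Off NTBC it was 66408 to 74819 in single knockout livers and 64426 and 68055 in double knockout livers. The trimmed mean signal was 348 to 349 on all 9 arrays. At most 0.407% of signals were identical between any pair of 430A arrays, and each array counted as 1 sample.

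Class I molecules sit on nearly all nucleated cells and show peptides made inside the cell to CD8 T cells. Their heavy chain folds with beta-2 microglobulin in the endoplasmic reticulum, where the TAP transporter delivers peptides and tapasin holds the empty molecule beside it. Class II molecules show peptides from outside the cell to CD4 T cells and are made mostly by B cells, dendritic cells and macrophages, in liver among others by Kupffer cells. Both sets of promoters carry the same row of short elements, the S, X and Y boxes, bound by RFX, CREB/ATF and NF-Y proteins and turned on through the coactivators NLRC5 (class I) and CIITA (class II), and class I promoters also carry NF-kB and interferon elements.

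Parts of 5 promoters are shown here because H2-K1, H2-D1 and B2m fell together below, because H2-Aa did not, and because H2-Q10 is a close heavy chain relative that also fell. They are RefSeq sequences of build GRCm38.p6, 5′ to 3′ on the gene's strand. H2-K1 is at chr17:34000358-34000467 on the minus strand, H2-D1 at chr17:35262914-35263023 on the plus strand, B2m at chr2:122147537-122147646 on the plus strand, H2-Aa at chr17:34287854-34287943 on the minus strand and H2-Q10 at chr17:35469909-35470018 on the plus strand. Each lies just upstream of the gene's start, and capitals mark matches to the motifs searched.
H2-K1: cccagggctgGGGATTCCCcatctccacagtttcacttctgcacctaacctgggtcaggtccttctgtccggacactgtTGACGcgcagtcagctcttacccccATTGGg
H2-D1: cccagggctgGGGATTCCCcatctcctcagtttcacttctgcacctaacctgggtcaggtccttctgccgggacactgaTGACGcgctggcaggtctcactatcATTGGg
B2m: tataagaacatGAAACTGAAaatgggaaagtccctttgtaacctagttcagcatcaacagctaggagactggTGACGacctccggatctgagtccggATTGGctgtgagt
H2-Aa: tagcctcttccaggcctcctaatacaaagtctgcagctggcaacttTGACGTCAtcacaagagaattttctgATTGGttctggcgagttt
H2-Q10: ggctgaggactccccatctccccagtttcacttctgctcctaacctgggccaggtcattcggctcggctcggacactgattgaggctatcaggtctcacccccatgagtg

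The motifs were searched on both strands of 300-base windows, 250 bases before each start and 50 after. They were the X2 box TGACG (found in 20.9% of 32544 promoters), the Y box CCAAT, which reads ATTGG on the other strand (37.4%), the X1 core CCTAGCAAC (0.811%), the NF-kB core GGGATTCCC (0.353%), the interferon response core GAAANNGAA (8.53%) and the STAT core TTCNNNGAA (8.33%). In H2-Aa the X2 box was matched on both strands at overlapping positions. H2-K1, H2-D1, B2m and H2-Aa each had TGACG followed by ATTGG, with 25, 25, 25 and 26 bases between the first letters of each. A pair at these distances, looked for after the letters were seen, was in 0.166% of all promoters. H2-K1 and H2-D1 had the NF-kB core at -110 to -102 and at -170 to -162 relative to their starts (for H2-K1 the first of 2 listed), and B2m had the interferon core at -139 to -131. Of the other members in the promoter table, Tap1 had an X2 box and a Y box, Tapbp and H2-Eb1 had 2 Y boxes each, and none of these had the spaced pair. H2-Q10 had no match to the 6 motifs. These matches describe letters and not bound sites. Other spellings of these elements were not searched, so an unmarked stretch may still hold an interferon or NF-kB element.

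Fah knockout livers off NTBC (n = 3) were first set against the normal group (n = 4). That group mixes genotypes and treatments, and only normal 3 is a Fah knockout on NTBC. The comparison therefore does not separate NTBC withdrawal from genotype. The class I heavy chain genes H2-K1 and H2-D1 and their light chain gene B2m fell, to between 0.406 and 0.579 of normal by the brightest probe set of each. Tap1 and Tapbp, which load peptide onto them, did not pass the test. No class II gene passed. By probe set, 12 of 16 for class I fell and 0 rose, where 15.4% of all 15307 tested probe sets fell and 20.1% rose, and 0 of 7 for class II passed in either direction. Of these 12, 2 dim H2-D1 probe sets entered the test through normal livers alone and so had to be lower off NTBC. Without both, 10 of 14 fell (median -0.88), where 15.3% fell of the 14099 probe sets at or above the 40th percentile in some normal and some liver off NTBC, a limit added after seeing the data. Of these 10, H2-D1 1425614_x_at met that limit through only 1 liver off NTBC. The median change was -0.93 for all 16 class I probe sets and -0.30 for class II, beside 0.02 for all probe sets tested (log2 of signal plus offset, limma with Benjamini-Hochberg adjustment over all probe sets, passed at adjusted p under 0.05).

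H2-K1, the K heavy chain, is described by its brightest probe set, 1425336_x_at. Its signal was 9913.5, 9673.7, 10718.2 and 11756.5 in normal 1 to 4, 4722, 4545.5 and 3581.9 in the single knockout livers and 4255.4 and 4654.5 in double knockout livers off NTBC. All 5 livers off NTBC were below all 4 normal livers, and the 4 normal livers lay close together. The single knockout mean was 4283 ± 614 (SD, n = 3) against 10520 ± 940 (SD, n = 4), a change of -1.30 ± 0.12 (SE, limma adjusted p = 1.44e-05).

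H2-D1, the D heavy chain, had 5785.3, 5810, 5105.1 and 8399.9 in normal 1 to 4, 3005, 3207.3 and 3209.1 in the single knockout livers and 3299.6 and 3252 in double knockout livers off NTBC (1425545_x_at). The 5 livers off NTBC lay within a narrow band below every normal liver, while normal 4 stood above the other normal livers. H2-D1 changed by -0.97 ± 0.15 (SE, limma adjusted p = 0.000533).

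B2m encodes beta-2 microglobulin, the light chain that every classical class I molecule needs. Its signal was 12177.1, 12849.3, 12406.7 and 12885.7 in normal 1 to 4, 6988.2, 7732 and 7128.6 in the single knockout livers and 7345.8 and 7347.7 in double knockout livers off NTBC (1452428_a_at). Its normal mean was 12580 ± 346 (SD, n = 4), and normal 4 was level with the rest. In the single knockout livers B2m changed by -0.79 ± 0.08 (SE, limma adjusted p = 3.29e-05).

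**Figure D1:**
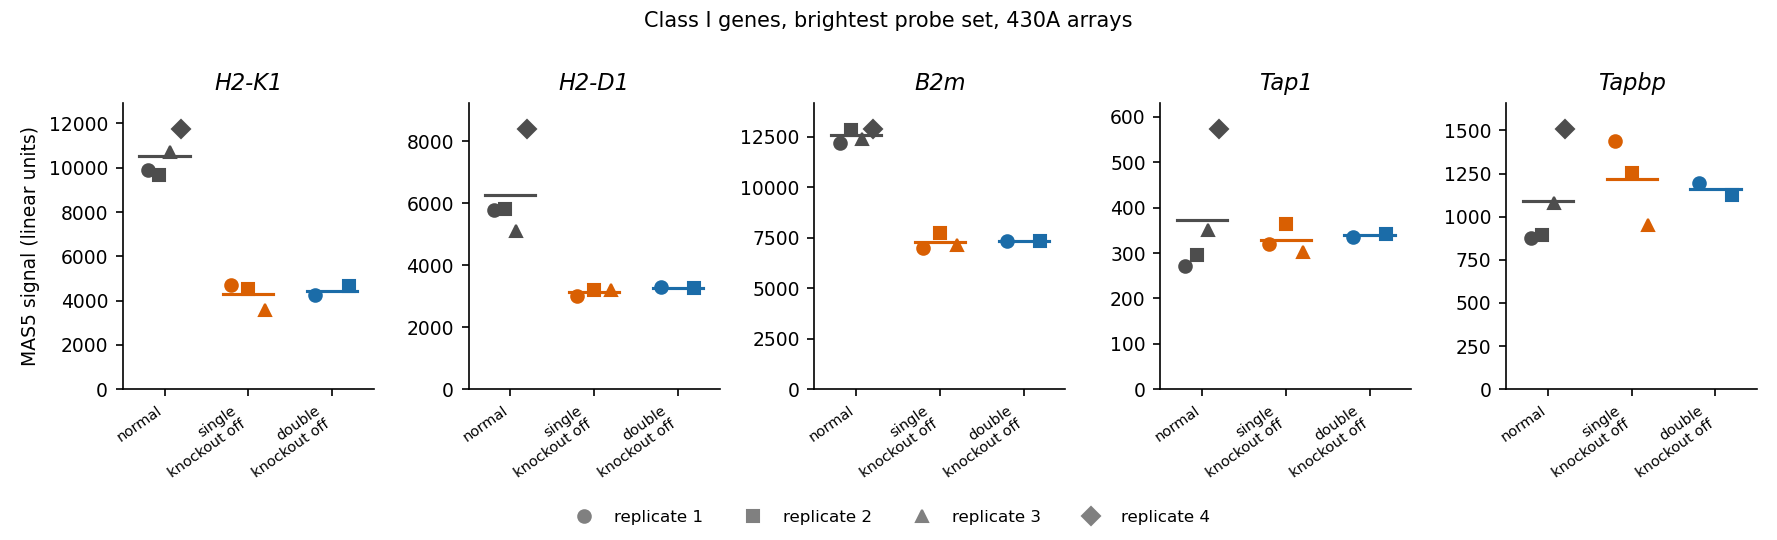
MAS5 signal (linear units, axes from 0) of the brightest 430A probe set of each class I gene, 1 point per liver with the marker giving the replicate number, and a line at each group mean. H2-K1, H2-D1 and B2m are lower in all 5 livers off NTBC than in all 4 normal livers, while the groups overlap for Tap1 and Tapbp.

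The probe sets of 1 gene differed in the size of their change. For H2-K1 all 4 tested probe sets fell in the single knockout livers, by between -1.11 and -2.99. The largest change was at 1427746_x_at, with 8184.3, 7751.7, 3462 and 8360.7 in normal 1 to 4, 778.2, 918.7 and 759.5 in the single knockout and 836.2 and 861.5 in the double knockout livers. Normal 3 stood well below the other normal livers at this probe set and not at the other H2-K1 probe sets.

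For H2-D1, 5 probe sets were bright enough in some livers of both kinds. Of these, 4 fell in the single knockout livers, by between -0.87 and -1.24. One of the 4, 1425614_x_at, was at or above the 40th percentile in 4 normal livers and in only 1 liver off NTBC. It thus met the filter through the normal livers. At the 2 dim ones normal signals were 81.3 to 171.1 (1450170_x_at) and 100.4 to 282.1 (1452544_x_at), and off NTBC they were 30.6 to 49.9 and 40.7 to 86.9, below the 40th percentile of each array, so no size of change is given. The exception among the 5 was 1426324_at, with 101.7, 93.2, 113.4 and 224.4 in normal 1 to 4 and 191.8, 221 and 224.3 in the single knockout livers (0.72 ± 0.28, limma adjusted p = 0.0714). Without normal 4 it passed as higher, at 0.98 ± 0.21 (limma adjusted p = 0.00477) in the single and 0.78 ± 0.23 (limma adjusted p = 0.0298) in the double knockout livers. The second B2m probe set fell by -0.84 ± 0.09.

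Heavy chain genes are near-identical copies, and identifiers ending in _x_at mark probe sets with probes that can bind other sequences, so signal is uncertain between family members. All 10 H2-K1 and H2-D1 probe sets that fell end in _x_at, and the H2-D1 probe set that did not fall ends in _at. The relative H2-Q10, which encodes a secreted class I heavy chain made in liver, was at 10550.8, 8738.9, 7980.5 and 7343 in normal 1 to 4, 1917.7, 1750.3 and 1646.6 in the single knockout and 2993.9 and 1961.6 in the double knockout livers. Its change was -2.27 ± 0.16 (limma adjusted p = 2.52e-06) in the single knockout livers, beside -1.30 for H2-K1 by its brightest probe set. Whether H2-Q10 RNA adds to the H2-K1 and H2-D1 signals was not tested.

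Tap1, a subunit of the peptide transporter, was at 271.1, 294.7, 350.1 and 573.5 in normal 1 to 4, 320.5, 363 and 302.4 in the single knockout and 335.9 and 342.4 in the double knockout livers (1416016_at). Livers off NTBC lay inside the range of the normal livers, whose highest value was normal 4. Tap1 changed by -0.12, with a 95% interval from -0.61 to 0.38, which a fall as large as that of H2-K1 lies outside of. Its 3 other probe sets had signals of 2 to 38.9 on 430A and were not tested.

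Tapbp encodes tapasin, the chaperone that ties class I molecules to the transporter. It was at 878.2, 891, 1076.8 and 1509.2 in normal 1 to 4, 1439.3, 1254.6 and 953.7 in the single knockout and 1196.2 and 1124.1 in the double knockout livers (1421812_at). The groups overlapped, and the single knockout change was 0.17, with a 95% interval from -0.27 to 0.62. The second Tapbp probe set gave 0.09, with an interval from -0.31 to 0.49.

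Class II genes varied widely among the normal livers themselves. H2-Aa, the A alpha chain, was at 1460.6, 1486.5, 2130.6 and 3484.4 in normal 1 to 4, 2468.9, 1536.1 and 1124.2 in the single knockout and 2394.7 and 2163.2 in the double knockout livers (1435290_x_at). The wildtype livers were level with each other, normal 4 was highest of all 9 livers, and the single knockout livers spread widely. H2-Aa changed by -0.30, with a 95% interval from -0.99 to 0.39.

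H2-Ab1, the A beta chain, was at 651.2, 605.6, 769.1 and 1708.7 in normal 1 to 4, 1107, 857.7 and 768.2 in the single knockout and 888.1 and 1051.8 in the double knockout livers (1450648_s_at). Normal 4 was again highest, and 4 of the 5 livers off NTBC lay above the 3 other normal livers. H2-Ab1 changed by 0.08, with a 95% interval from -0.59 to 0.76, and its other probe sets gave -0.50 and -0.39.

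H2-Eb1, the E beta chain, was at 932.1, 917.3, 1246.4 and 2033.3 in normal 1 to 4, 1037.3, 950.7 and 669.3 in the single knockout and 1321.1 and 1085.1 in the double knockout livers (1417025_at). Single knockout 3 was lowest and normal 4 highest. H2-Eb1 changed by -0.47, with a 95% interval from -1.05 to 0.11.

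Cd74, the invariant chain that escorts class II molecules and keeps their groove closed, was at 1095.5, 1161.8, 1816.5 and 3605 in normal 1 to 4, 1794.3, 1829.7 and 1207.1 in the single knockout and 2166.1 and 1659.2 in the double knockout livers (1425519_a_at). Every liver off NTBC lay above the wildtype livers and below normal 4. Cd74 changed by -0.10, with a 95% interval from -0.88 to 0.67.

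**Figure D2:**
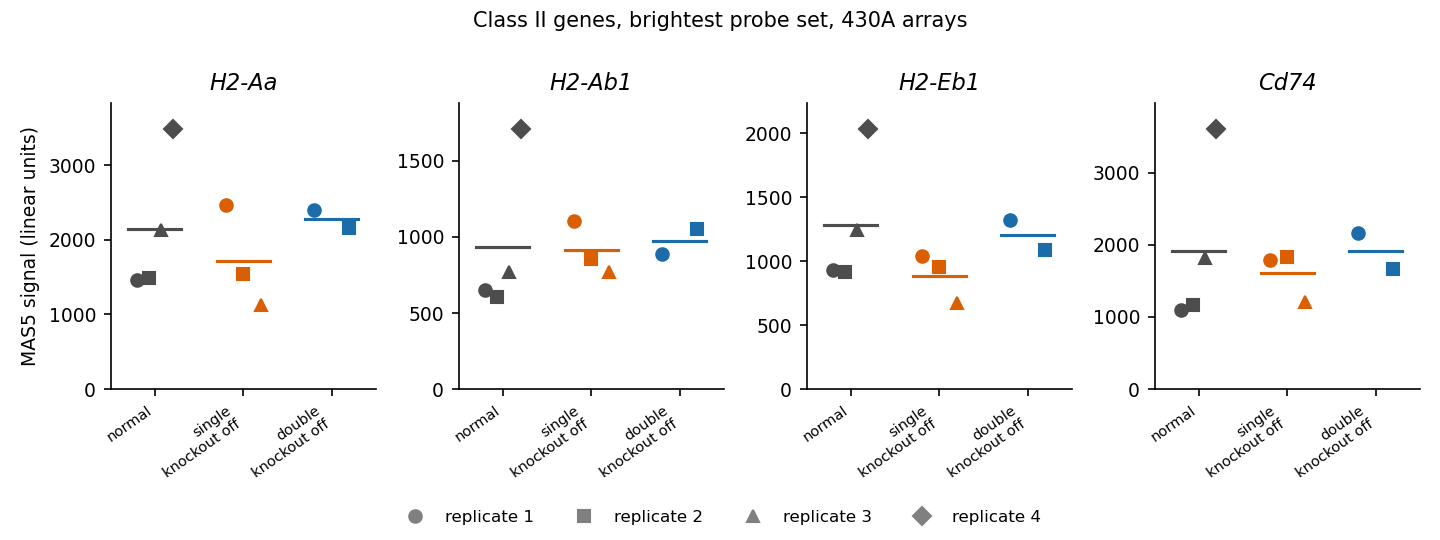
MAS5 signal (linear units, axes from 0) of the brightest 430A probe set of each class II gene, 1 point per liver with the marker giving the replicate number, and a line at each group mean. Normal 4 is the highest of all 9 livers in each panel, 3605 for Cd74 and 1708.7 for H2-Ab1, and for every gene the livers off NTBC overlap the normal livers.

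The second comparison set double knockout liver off NTBC (n = 2) against the same 4 normal livers. Of these only normal 4 has the matching genotype, so withdrawal and genotype are again not separated. H2-K1, H2-D1 and B2m fell to between 0.425 and 0.585 of normal by the brightest probe sets, Tap1 and Tapbp did not pass, and no class II gene passed. By probe set 10 of 16 for class I fell and 0 rose, where 10.7% of all probe sets fell and 17.7% rose, and 0 of 7 for class II passed. Without both dim H2-D1 probe sets 9 of 14 fell (median -0.84), beside 10.8% of the probe sets held to the same limit. The median change was -0.91 for class I and 0.16 for class II, beside 0.11 for all probe sets. Both comparisons share the 4 normal livers, so the values stand side by side and are no independent repeats.

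H2-K1 changed by -1.23 ± 0.14 (limma adjusted p = 8.66e-05), H2-D1 by -0.91 ± 0.17 (limma adjusted p = 0.00258) and B2m by -0.77 ± 0.09 (limma adjusted p = 0.00015). After quantile normalization the B2m change was -0.20 and no longer passed (limma adjusted p = 0.143), while over all 19 alternatives its adjusted p ran from 7.8e-05 to 0.143. The 95% intervals were from -0.63 to 0.49 for Tap1, from -0.38 to 0.63 for Tapbp, from -0.60 to 0.97 for H2-Aa, from -0.58 to 0.95 for H2-Ab1, from -0.68 to 0.64 for H2-Eb1 and from -0.72 to 1.04 for Cd74. Without double knockout 1, 7 of 16 class I probe sets fell, 6 of 14 without both dim H2-D1 probe sets, where 6.43% of all fell. Without double knockout 2, 7 of 16 fell, 7 of 14 without the dim ones, where 7.31% of all fell. In each case the remaining liver is assumed to vary like the other groups.

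**Figure D3:**
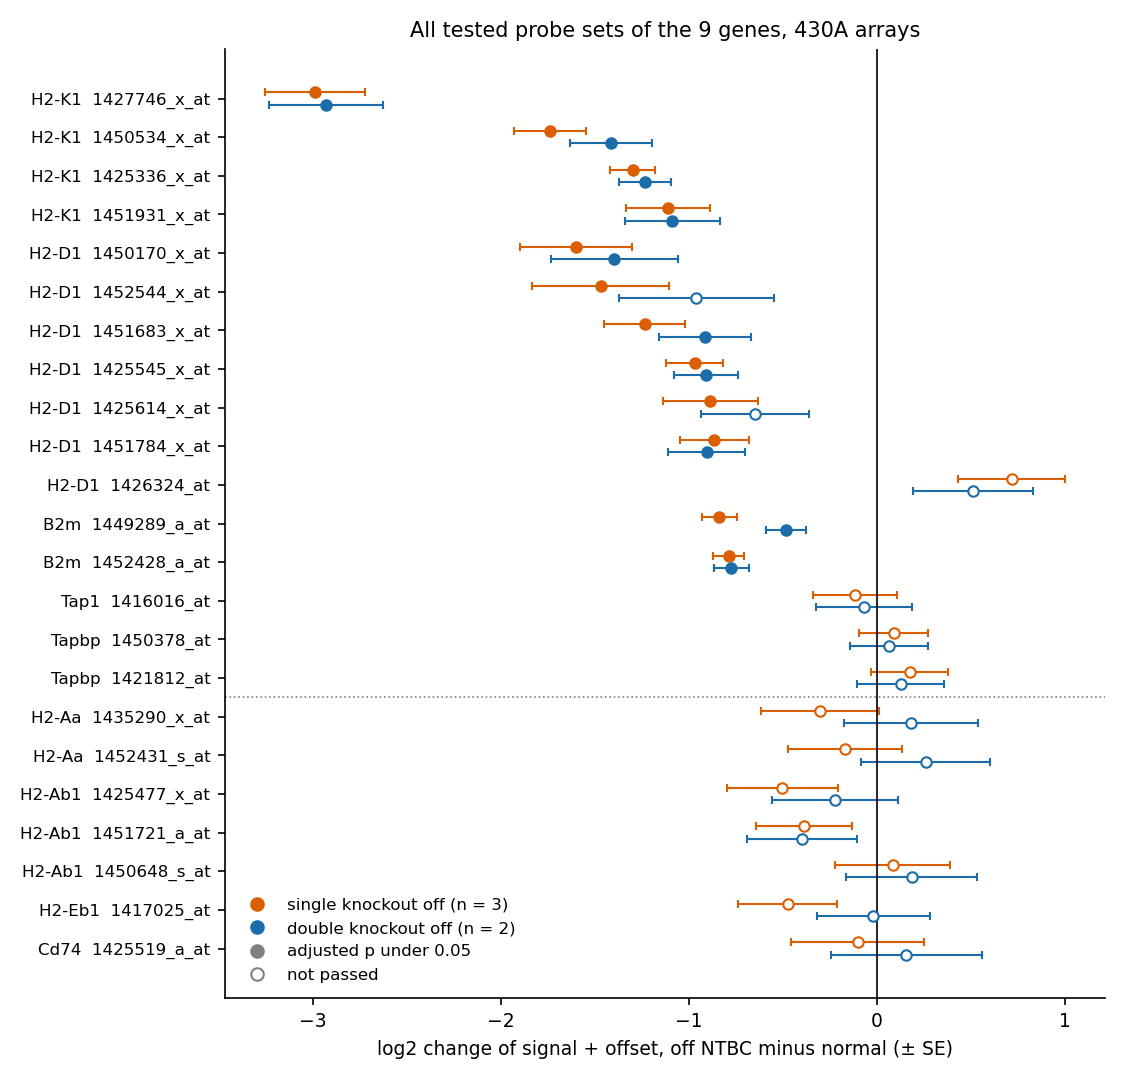
Change in log2(signal + offset) ± SE of all 23 tested probe sets against the 4 normal livers, class I above the dotted line and class II below it, with filled points for limma adjusted p under 0.05. In the single knockout livers 12 of 16 class I probe sets fell and 0 of 7 class II probe sets passed, against 10 of 16 and 0 of 7 in the double knockout livers. The H2-D1 points of 1425614_x_at, 1450170_x_at and 1452544_x_at rest on dim signal off NTBC.

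The third comparison asked whether loss of p21 made a difference among livers off NTBC (n = 2 against 3), and it rests on the double knockout label described above. None of the 23 member probe sets passed (16 for class I, 7 for class II), and of all probe sets 0.0261% were higher and 0.0131% lower. The medians were 0.06 for class I and 0.28 for class II, beside 0.06 for all probe sets. H2-K1 differed by 0.07, with a 95% interval from -0.25 to 0.38, and B2m by 0.01, from -0.20 to 0.23. For H2-Aa the difference was 0.49, from -0.34 to 1.31, and for H2-Eb1 0.45, from -0.24 to 1.15, intervals that reach beyond 1, or a doubling. For H2-Eb1 both double knockout livers lay above all 3 single knockout livers.

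Among the member probe sets the lowest unadjusted p in this comparison, 0.00857, belonged to the second B2m probe set, 1449289_a_at, which did not pass after adjustment. Its signal was 10227.1, 10342.5, 10128.4 and 9379 in normal 1 to 4, 5742.5, 5060.2 and 6019.6 in the single knockout and 7289.1 and 7040 in the double knockout livers. Both double knockout livers lay above all 3 single knockout livers (0.36 ± 0.11, limma adjusted p = 0.394). The first B2m probe set had overlapping groups.

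Class I and class II are set against each other here as a description, in each liver relative to the mean of both wildtype livers. The class I median over 5 genes was 0.13 in normal 3 and 0.53 in normal 4, and in the livers off NTBC it lay between -0.69 and -0.84. The class II median over 4 genes was 0.48 in normal 3 and 1.33 in normal 4, then 0.70, 0.25 and -0.14 in the single knockout and 0.60 and 0.55 in the double knockout livers. In each of the 5 livers off NTBC, H2-K1, H2-D1 and B2m were thus below wildtype, and in 4 of these 5 livers the class II median was above it. Tap1 and Tapbp were above the wildtype mean in all 5.

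**Figure D4:**
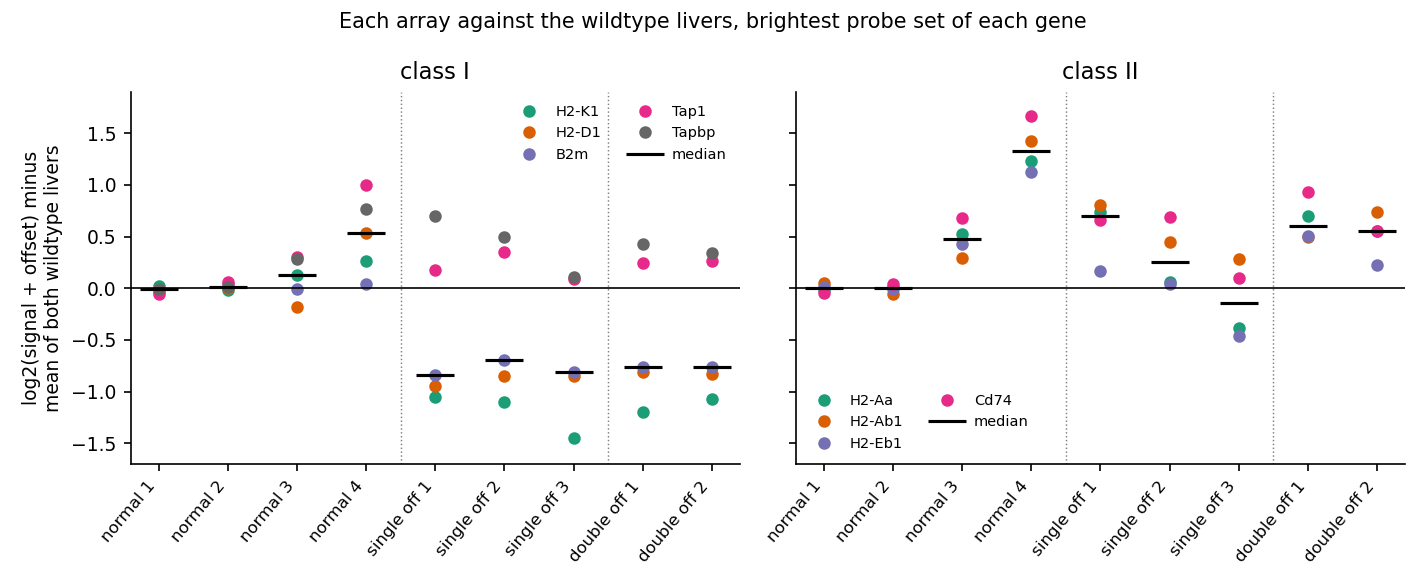
Difference in log2(signal + offset) between each 430A array and the mean of both wildtype livers, 1 coloured point per gene (brightest probe set) and a black bar at the class median, with class I at left and class II at right. Class II points of normal 4 lie between 1.13 and 1.67, above those of every other array, and class I splits off NTBC into H2-K1, H2-D1 and B2m below 0 and Tap1 and Tapbp above 0.

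Normal 4 was highest of the normal livers at 14 of 16 class I and 7 of 7 class II probe sets tested. It is the liver without Fah and p21 on NTBC and the genotype-matched control of the double knockout livers, and with 1 mouse of that kind on 430A, genotype and mouse cannot be told apart. Without it, 10 (single knockout) and 9 (double knockout) fell of the 14 class I probe sets bright enough in some livers of both kinds. Of all tested, 14% and 10.4% fell. For class II 0 of 7 probe sets passed, with medians of -0.04 and 0.45. Against the genotype-matched liver on NTBC alone, 9 of 14 class I probe sets fell in the single and 8 of 14 in the double knockout livers, where 6.64% and 4.47% of all tested fell. Class II then had medians of -0.39 and -0.82, and the 1 of 7 probe sets that passed was H2-Ab1 1451721_a_at in the double knockout livers (-1.09 ± 0.26, limma adjusted p = 0.0313). In these fits the lone control is assumed to vary like the other groups.

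The 430 2.0 arrays gave a reading of other double knockout livers, against the normal 4 mouse. Signal was 13760 for H2-K1 in normal 4 and 5218 and 5421.7 in double knockout 3 and 4. It was 13233.7, 8091.5 and 8274.3 for H2-D1 and 24582.7, 12575.1 and 15347.7 for B2m. H2-K1 fell (-1.37 ± 0.22, limma adjusted p = 0.00982), while H2-D1 (-0.69 ± 0.22, limma adjusted p = 0.097) and B2m (-0.82 ± 0.24, limma adjusted p = 0.0783) did not pass by the brightest probe set. Of 14 class I probe sets tested, 6 fell and 0 rose, where 3.8% of all 26925 probe sets fell and 7.71% rose. These 6 were all 4 for H2-K1 and 2 for H2-D1. The fit had 1 residual degree of freedom, and the lone normal array is assumed to vary like the others.

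Among the other members on 430 2.0, Tap1 was at 686.1 in normal 4 and at 450.7 and 407.9 off NTBC, and Tapbp at 3085.5, 2417 and 2691.7. Class II signals were also lower off NTBC than in normal 4 at all 9 probe sets. Their median change was -0.83, beside -0.76 for the 14 class I probe sets tested and 0.07 for all probe sets. By medians the classes were thus not set apart on these arrays as they were on 430A. H2-Eb1, at 3809 in normal 4 and 1986.8 and 1171.7 off NTBC, was the 1 of 9 that fell (-1.32 ± 0.33, limma adjusted p = 0.0487). Cd74 was at 4478.2, 3383.2 and 1878.1. On the same arrays the summed signal of 20 macrophage markers was 32848 in normal 4 and 46346 and 38130 off NTBC. Of the 20, 3 were higher and 0 lower, where 7.71% of all probe sets rose. Of 9 hepatocyte genes 0 passed, their sum being 164885, 133494 and 133480. The 430A arrays put normal 4 above the 3 other normal livers for Tap1, Tapbp and the class II genes. They did so too for H2-D1 (8399.9, others 5105.1 to 5810) and H2-K1 (11756.5, others 9673.7 to 10718.2), while B2m was level by its brightest 430A probe set. In all, normal 4 was highest at 14 of 16 class I and 7 of 7 class II probe sets tested. No other control was run on 430 2.0, so the falls of both classes there rest on this liver.

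The class I members include very bright genes, and the share of probe sets that fell was larger among bright ones. Among the brightest 1% of tested probe sets (154), 56.5% fell in the single and 61% in the double knockout livers, with medians of -0.36 and -0.49, and 3 of these 154 were class I members, all of which fell. Among the brightest 5%, 35% and 39% fell, as did 5 of 5 class I members. Scaling touched the class II directions. The median of all probe sets moved from 0.11 to -0.13 in the double knockout comparison when each array was scaled to a common median, and the share of higher among called probe sets from 62.4% to 39.3%. The class II median was then -0.09 in place of 0.16, with H2-Aa at -0.06, H2-Ab1 at -0.06 and Cd74 at -0.09, none of which passed under either scaling, and 12 of 16 class I probe sets fell, the dim ones counted.

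Other genes of class I loading and peptide supply were read as a list of 13, of which 11 were on 430A and tested. In the single knockout livers, where 15.4% of all probe sets fell and 20.1% rose, 3 of these fell, 1 rose and 7 did not pass (median -0.17). Those that fell were chaperone genes of the endoplasmic reticulum that also fold other glycoproteins, calreticulin (Calr, -0.90 ± 0.13), the disulfide isomerase gene Pdia3 (-0.78 ± 0.17) and calnexin (Canx, -0.54 ± 0.11), and the proteasome activator gene Psme1 rose (0.44 ± 0.13). In the double knockout livers Calr (-0.81 ± 0.14) and Pdia3 (-0.67 ± 0.19) fell and 9 did not pass (median -0.23), where 10.7% of all probe sets fell. Calr ranged from 5645.4 to 7214.3 among normal livers and from 3184.3 to 4230.1 among the 5 livers off NTBC, with no overlap. Between both groups off NTBC none of the 11 passed.

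The immunoproteasome subunit Psmb9, an interferon target that cuts peptides for class I, was at 344.7, 289.2, 278.9 and 746.4 in normal 1 to 4, 304.1, 262.6 and 232.5 in the single knockout and 226.7 and 264.5 in the double knockout livers. Normal 4 again stood apart, and the other normal livers lay close to those off NTBC. On 430 2.0 Psmb9 fell from 1472.5 in normal 4 to 339.4 and 322.5 (-2.14 ± 0.26, limma adjusted p = 0.00312). Psmb8 (-1.28 ± 0.25) and Psmb10 (-1.21 ± 0.24) fell with it, the 3 that fell of 12 tested, where 3.8% of all probe sets fell. Nlrc5, the class I coactivator, was named on 430 2.0 and not on 430A. It was at 533.3 in normal 4 and 401.9 and 178.4 off NTBC and did not pass.

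Of 23 other class I and class I-like heavy chain genes, 12 were on 430A and 9 tested. H2-Q10 fell as given above and by -1.82 ± 0.19 in the double knockout livers. Azgp1, which encodes a secreted class I-like protein of fat metabolism, ranged from 9354.3 to 10278.8 in normal livers and from 1933.4 to 2961.2 in the 5 livers off NTBC (-2.14 ± 0.12 and -1.87 ± 0.13). Fcgrt, the heavy chain of the neonatal Fc receptor, also fell in the double knockout livers (-0.50 ± 0.15). Of the 9, 2 fell in the single and 3 in the double knockout livers, where 15.4% and 10.7% of all probe sets fell. The list's medians were -0.08 and -0.10, with 0 of 9 higher in either comparison, and 0 of 9 passed between both groups off NTBC.

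Other genes of the class II pathway were read as a list of 17, of which 13 were on 430A and 11 tested. In the single knockout livers, where 20.1% of all probe sets rose, 4 of these rose, 0 fell and 7 did not pass (median 0.07). In the double knockout livers, where 17.7% of all rose, 5 of these rose, 0 fell and 6 did not pass (median 0.18). Among those that rose were genes of lysosomal enzymes that cut or reduce antigen, the thiol reductase gene Ifi30 (0.84 ± 0.18 and 1.61 ± 0.21) and the protease genes Lgmn (0.83 ± 0.14 and 0.98 ± 0.16) and, in the double knockout livers, Ctss (1.09 ± 0.29). Ifi30 was at 422.9, 369.3, 455.8 and 487.4 in normal 1 to 4, 830.9, 917.9 and 626.7 in the single knockout and 1094.9 and 1623.9 in the double knockout livers, so that normal 4 was close to the other normal livers here. Rfx5, a subunit of the X box factor, rose in both (1.23 ± 0.15 and 0.93 ± 0.17). The counts include Cd83, which steadies class II at the cell surface and entered the test through livers off NTBC alone (16.7 to 89.5 in normal livers, 104.7 to 170.7 off NTBC). Rfx5 ranged from 188.8 to 248 in normal livers and from 382 to 590.5 off NTBC.

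Ciita, the class II coactivator, was at 56.2, 65.3, 96 and 131.6 in normal 1 to 4, 77.7, 60.3 and 51.1 in the single knockout and 106.1 and 65.3 in the double knockout livers, and did not pass. H2-DMa, which exchanges peptides on class II, was at 126.5, 126.7, 149.6 and 320.4 in normal 1 to 4 and 154.8 to 205.1 off NTBC, and did not pass either. Both were highest in normal 4, as the class II chains were. H2-Ea, the partner of H2-Eb1, was at 6.7 to 59.6 on all 9 arrays and was not tested. None of the 11 passed between both groups off NTBC. On 430 2.0 Lgmn (1.06 ± 0.23) and Ifi30 (0.98 ± 0.22) rose and 14 of 16 did not pass, where 7.71% of all probe sets rose.

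Interferon induces both classes, and 36 of its targets were read, 31 on 430A and 28 tested. This list shares Tap1 with the members and 3 genes with the loading list. In the single knockout livers 3 rose, 4 fell and 21 did not pass (median -0.12), with the antiviral genes Rsad2 (2.01 ± 0.27) and Mx1 higher and the chemokine gene Cxcl9 and Bst2 (-0.96 ± 0.21) lower. Neither share exceeds that of all probe sets given above. In the double knockout livers 3 rose, 1 fell and 24 did not pass (median -0.02), with Rsad2 (1.82 ± 0.31), Mx1 and Usp18 (1.17 ± 0.29) higher and Cxcl9 lower. Cxcl9, a target of interferon gamma, ranged from 118.2 to 300.8 in normal livers and from 10.8 to 53.2 off NTBC, and Rsad2 from 144.8 to 289.2 and from 587.9 to 1031.4. Mx1 ranged from 12.7 to 65.5 and from 107.1 to 230.5. No size of change is given for Cxcl9 and Mx1, which were below their arrays' 40th percentile in all livers of the lower group. Each entered the test through the group where it was high, so its direction was set by the filter, and the counts above include both. Apart from these 2 genes, the list held genes moving in both directions in the single knockout livers, such as Rsad2 and Bst2. In the double knockout livers Cxcl9 was the only one that fell.

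The summed signal of the interferon targets was 10483 to 16111 in normal 1 to 3 and 21635 in normal 4, then 13705 to 17304 in the single and 12076 and 15995 in the double knockout livers. On 430 2.0, where normal 4 was the control, 9 of 30 targets fell and 2 rose (median -0.48), where 3.8% of all probe sets fell and 7.71% rose. The share of targets that rose was thus near that of all. Psmb9 and Gbp6 (-1.90 ± 0.28) were among those lower, and Mx1 and Rsad2 (1.81 ± 0.28) were higher. The part of interferon targets in the class I and class II values was not tested.

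In whole liver, fewer cells of a type and less RNA per cell cannot be told apart, so marker genes of cells that carry class II were read beside the members. Of 20 macrophage and Kupffer cell markers, 18 were tested. In the single knockout livers 4 rose and 0 fell (median 0.44), a share near the 20.1% of all probe sets that rose. Without normal 4, 10 rose, where 20.7% of all rose. In the double knockout livers 11 rose and 0 fell (median 0.63), where 17.7% of all rose, and without normal 4 it was 12, where 19% of all rose. The lipopolysaccharide receptor gene Cd14 (2.02 ± 0.20 and 1.98 ± 0.22) and the lysozyme gene Lyz2 (1.34 ± 0.19 and 1.63 ± 0.22) had large changes in both, Cd68 (0.81 ± 0.19) and Vsig4 (0.71 ± 0.17) also rose in the single and Ly86 (1.64 ± 0.48) and Mpeg1 (1.26 ± 0.39) in the double knockout livers. Cd14 ranged from 164.3 to 292 in normal livers and from 809.5 to 1023.4 off NTBC. The list shares Ctss with the class II pathway list.

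The summed macrophage marker signal was 8803.4, 8533.2, 10615.1 and 15419.2 in normal 1 to 4, 13457 to 16669 in the single and 18126 and 19188 in the double knockout livers. It was thus raised in normal 4, where class II was highest, and also in the livers off NTBC, where class II did not pass. Of 6 tested B cell markers the immunoglobulin gene Ighm alone rose (0.71 ± 0.21 and 0.75 ± 0.24), where 20.1% and 17.7% of all probe sets rose. The B cell sum over 10 genes was 756.5 to 1081.2 in the normal livers and 726 to 1242.9 off NTBC. Pax5, a defining B cell gene, was at 11.9 to 21.1. None of 5 tested dendritic cell markers passed in either comparison, with summed signal of 512.5 to 802 in the normal livers, highest in normal 4, and 448.7 to 712.4 off NTBC, and Ccr7 at 2.8 to 7. Of 8 hepatocyte genes 8 fell in the single and 7 in the double knockout livers (medians -0.56 and -0.61). The class I medians, likewise over genes by the brightest probe set (5 genes), were -0.789 and -0.775. Of all probe sets 15.4% and 10.7% fell. This list includes very bright genes such as Alb, and among the brightest 1% of probe sets 56.5% and 61% fell. The part of cell makeup in the class I and class II values was not tested.

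By likeness of pattern over the 9 arrays of 430A, as a description over arrays that share their groups, the gene closest to the class I mean profile among 9045 genes was Ehd3, an endosomal trafficking gene (Pearson r 0.973). It was at 797.9, 792.7, 863.2 and 1162.3 in normal 1 to 4 and at 603 to 741.4 off NTBC. Hdac11, a histone deacetylase gene (0.968), Krtap5-2 (0.962), Asb8 (0.958) and Tac4 (0.958) followed. The class I mean profile included Tap1 and Tapbp, which did not fall. Ehd3 and Hdac11 passed as lower in the single knockout livers alone, and Krtap5-2, Asb8 and Tac4 passed in neither comparison. Closest to the class II mean profile were Mrm1, a mitochondrial RNA methyltransferase gene (0.976), the chromatin remodeller gene Chd8 (0.968), Wdr90 (0.961), the polarity gene Llgl1 (0.952) and Hoxb2 (0.949). Chd8 was at 223.7, 224.7, 305 and 448.6 in normal 1 to 4 and at 211.2 to 345.5 off NTBC. For all 10 genes normal 4 was the highest of the normal livers.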

How the data were processed

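Liver RNA of 12 samples was measured on Affymetrix arrays, 9 on 430A and 3 on 430 2.0. The authors deposited MAS5 signal intensity per probe set in linear units. GCOS 1.4.0.036 produced them, per the submitters' processing notes, and the values show each array already scaled to a common level per array. Each table was scaled on its own, so tests were made within a table. Tests used log2(signal + offset), where the offset equals the 10th percentile over each design (9.9 for 430A, 3.8 for 430 2.0), which understates changes of dim probe sets. A probe set was tested if 2 or more arrays had it no lower than that array's 40th percentile, which left 15307 and 26925 after 64 controls per table were dropped. All 9 arrays of 430A entered 1 fit with limma 3.58.1 (lmFit and eBayes with the intensity trend, R 4.3.3), with 6 residual and 5.01 prior degrees of freedom, and p-values were adjusted by Benjamini-Hochberg over all probe sets tested. The fit was tested on simulated data. Depth does not apply to arrays, and their number limits the precision.

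Symbols came from GEO's platform annotation, matched to RefSeq for 20351 of the 20380 probe sets of 430A with 1 symbol. On 430A 691 had several symbols and 1555 none, and on 430 2.0 these were 932 and 9160 beside 34945 with 1 symbol. On either design 3 probe sets with a member and another symbol were left out. The probe set with the highest mean log2 signal stood for a gene. Named from each list were up to 4 genes that passed with the largest changes, or where fewer than 2 passed those with the smallest p, with Psmb9, Nlrc5, Ciita, Bicc1, Epcam, Sox9, H2-DMa, H2-Ea, Pax5, Ccr7 and the hepatocyte and endothelial genes named for their role after their values were seen. The members and lists were chosen with earlier results of these data known. Same-numbered samples did not deviate together (correlations from -0.28 to 0.07), so the numbers were not used as pairs. H2-Ab1 and Cd74 have no promoter shown. Figures were drawn with matplotlib 3.10.9 (Python 3.11.15).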

Additional observations from a re-analysis of the deposited data

Results flagged for a closer look

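Each of the 23 tested member probe sets was read in the 4 normal livers, and in 7 of them 1 liver lay far from the 3 others. The rule used flags about 1 in 20 groups of 4 samples drawn from 1 population. These 4 livers differ in genotype and treatment, and the members were chosen with earlier results known, so that rate is no expectation here. In 6 of the 7 probe sets the liver was normal 4 and was the highest. These were H2-Aa 1452431_s_at at 618.1 (others 255.3 to 282.6), H2-Ab1 1450648_s_at at 1708.7 (605.6 to 769.1), H2-D1 1426324_at at 224.4 (93.2 to 113.4), H2-D1 1451683_x_at at 2353.1 (1195 to 1318.4), H2-D1 1451784_x_at at 7537.9 (4289.7 to 4625.3) and H2-K1 1450534_x_at at 1198.7 (674.2 to 744.6). The other was H2-K1 1427746_x_at, at 3462 in normal 3 against 7751.7 to 8360.7. A further 14 genes came from the lists, some of them picked after their values were seen, and are not set against that rate either. Among them normal 4 stood apart for Psmb9 at 746.4 (278.9 to 344.7) and H2-DMa at 320.4 (126.5 to 149.6). The sets share livers and probe sets of 1 gene, so the flags are not independent.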

How the results depend on the processing

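Over 27 member changes and their alternatives, 463 of 504 values kept their direction and their side of the threshold, 1 was lost and 40 turned direction, all 40 among changes that did not pass in either setting. Causes were not tested. The lost call was B2m in double knockout against normal after quantile normalization (-0.205). Quantile normalization also turned H2-Eb1 in double knockout against normal (0.01111) and Tap1 between knockouts (-0.03468). Scaling to a common median turned Tapbp (-0.1159), H2-Aa (-0.05988), H2-Ab1 (-0.05598) and Cd74 (-0.08576) in double knockout against normal, and H2-K1 (-0.1055), H2-D1 (-0.1097), B2m (-0.1573), Tap1 (-0.1183) and H2-Ab1 (-0.06824) between knockouts. Averaging all probe sets turned H2-Ab1 against normal (-0.2693 single, -0.1454 double). The genotype-matched control alone turned Tapbp (-0.3771), H2-Aa (-0.6121), H2-Ab1 (-0.8152) and Cd74 (-0.9233) in the double knockout, called 1 class II probe set there and gave 2546 (single) and 1837 (double) calls over all probe sets, against 5437 and 4353. With the replicate block, Tap1 (0.1068) and Cd74 (0.2573) turned in the single and Tap1 (0.1767) and H2-Eb1 (0.2045) in the double knockout, with 11 and 10 class I probe sets lower and 4463 and 3479 calls in all. Replicate numbers did not pair the samples. Leaving out 1 array at a time gave, against normal, ranges of -0.2444 to 0.1069 for Tap1, -0.07708 to 0.4168 for H2-Ab1 and -0.3125 to 0.2573 for Cd74 in the single knockout. In the double knockout they were -0.1963 to 0.155 for Tap1, -0.1603 to 0.2271 for H2-Eb1 and -0.05349 to 0.5164 for Cd74. Between knockouts they were -0.05783 to 0.141 for H2-K1, -0.01511 to 0.05776 for B2m, -0.008128 to 0.1198 for Tap1, -0.211 to 0.08337 for Tapbp and -0.01942 to 0.2491 for H2-Ab1. Calls over all probe sets ran from 2477 to 4636 in double knockout against normal (2477 and 2563 without double knockout 1 and 2) and from 1 to 58 between knockouts, 58 without double knockout 1. Between knockouts the 6 calls became 1 with the stricter filter, without offset and with the replicate block, 3 with median scaling, 13 without the trend and 14 with the higher offset. On 430 2.0 the 3101 calls became 1002 without the filter and 1225 without the trend, and leaving out a double knockout array there leaves no residual degrees of freedom and was not run.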

Other observations

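Marker lists of other cell types were also read. Of 5 tested T and NK cell markers, the chemokine gene Ccl5 passed as lower in the single knockout livers and 0 passed in the double knockout livers. Ccl5 was at or above the 40th percentile in 4 normal livers and only 1 liver off NTBC. It met the filter through the normal livers, so no size of change is given. Without normal 4 none of 4 tested passed in either. Of 10 endothelial markers the hyaluronan receptor gene Lyve1 rose in the single (1.75 ± 0.28) and double knockout livers (2.04 ± 0.31), from 32.2 to 96.8 in the normal livers to 240.5 to 321.5 off NTBC, and the phosphatase gene Ptprb fell in the double knockout livers (-0.55 ± 0.17). All 6 tested cholangiocyte markers passed as higher in both comparisons, but Bicc1, Epcam, Prom1 and Sox9 entered the test through livers off NTBC alone, so the count supports nothing. Krt23 ranged from 10.6 to 91.6 in normal livers and from 338.2 to 478.6 off NTBC, and Prom1 from 23.3 to 62.5 and from 305.2 to 828. The list's summed signal was 220.6 to 404.7 in the normal livers and 1609.4 to 2644 off NTBC.

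The B cell gene Ighm was read by different probe sets on the 2 array designs, against different controls. It rose in the double knockout livers against the 4 normal livers on 430A (0.75 ± 0.24, limma adjusted p = 0.0348) and fell in the other double knockout livers against normal 4 alone on 430 2.0 (-2.13 ± 0.35, limma adjusted p = 0.011), and the difference between designs was not tested.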
